A study of Mus musculus with 12 samples.

Results

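Glycolysis and the response to low oxygen were followed through 35 genes in mouse CD4+ T cells. The genes were taken by symbol from a named list, with no threshold on their values but with earlier results of these data known, and all 35 were found among the 35492 gene symbols of the expression files. Of these, 20 encode glucose transporters, glycolytic enzymes and regulators of glycolysis, and 15 encode the hypoxia-inducible factor HIF1α, its oxygen sensors and its target genes.

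RNA was sequenced from 4 groups of 3 libraries, all from C57BL/6J mice aged 7 weeks, with RNA extracted from 300000 CD4+ T cells. The tumour Tfh group (Tfh_TILS) held T follicular helper cells isolated as CD4+ CXCR5+ PD1+ cells from MC38 tumours, a mouse colon carcinoma line grown in mice. The wild-type Tfh culture (Tfh_Vitro) started from naive T cells of wild-type spleen and lymph nodes on plates coated with CD3 and CD28 antibodies, with IL-6 and IL-21 at 50 ng/ml each, and with IL-4, IFNγ and TGFβ each neutralised by antibody at 10 µg/ml. The OT-II Tfh culture (Tfh_OTII) was given the same Tfh conditions but started from OT-II mice, whose CD4+ T cells carry a transgenic T cell receptor for ovalbumin. The Th1 culture (Th1_Vitro) started from wild-type cells with IL-12 at 10 ng/ml and the IL-4 blocking antibody at 10 µg/ml. Sample titles give 24 h for both wild-type cultures and 48 h for the OT-II culture, whereas the protocol text gives 48 h for both kinds of differentiation. OT-II origin and titled time therefore cannot be told apart. Uncultured naive cells and uncultured T cells from tumour-free mice were not analysed here. Nothing in the labels says that the 3 libraries of a group came from separate animals or cultures. The spread behind each p-value is therefore that of these libraries after the scaling described below, and may be technical. In such bulk samples, fewer cells of a type and less RNA per cell cannot be told apart.

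Glycolysis splits glucose into pyruvate, which lactate dehydrogenase turns into lactate, and activated T cells run this path at a high rate even when oxygen is present. HIF1α is hydroxylated by oxygen-dependent prolyl hydroxylases (EGLN proteins) and then degraded. When oxygen is scarce, or when T cell receptor and mTOR signals raise its synthesis, it accumulates, binds DNA with its partner ARNT and raises transcription of glucose transporters, glycolytic enzymes, mitophagy receptors and its own hydroxylases. Several of these genes also answer to MYC and other activation signals in T cells.

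HIF1α with ARNT binds DNA at a short word, ACGTG or GCGTG, so the bases upstream of the members were searched for both words on both strands. The windows printed here are those of 3 HIF targets called between the wild-type Tfh and Th1 cultures on the scaled values described below (Bnip3, Egln3 and Mxi1) and of 3 glycolytic enzymes not called there (Hk2, Pgk1 and Ldha). Each run is 5′ to 3′ on the gene's strand and ends at the base before the RefSeq transcript start, except that 13 bases of Bnip3 that lie in an annotated exon were left off. Capitals mark ACGTG and GCGTG or their complements, CACGT and CACGC. Where both strands match, the overlapping capitals read CACGTG, which is also the E-box bound by MYC and related factors.
Bnip3: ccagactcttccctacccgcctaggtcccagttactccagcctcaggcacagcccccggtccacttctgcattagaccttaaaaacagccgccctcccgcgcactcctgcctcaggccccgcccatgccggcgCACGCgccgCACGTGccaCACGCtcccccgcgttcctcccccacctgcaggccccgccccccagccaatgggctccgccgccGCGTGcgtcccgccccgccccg
Egln3: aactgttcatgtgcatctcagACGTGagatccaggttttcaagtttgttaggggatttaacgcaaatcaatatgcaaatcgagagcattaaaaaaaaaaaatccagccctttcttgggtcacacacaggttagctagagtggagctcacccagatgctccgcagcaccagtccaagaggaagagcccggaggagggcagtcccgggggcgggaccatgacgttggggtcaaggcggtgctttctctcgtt
Mxi1: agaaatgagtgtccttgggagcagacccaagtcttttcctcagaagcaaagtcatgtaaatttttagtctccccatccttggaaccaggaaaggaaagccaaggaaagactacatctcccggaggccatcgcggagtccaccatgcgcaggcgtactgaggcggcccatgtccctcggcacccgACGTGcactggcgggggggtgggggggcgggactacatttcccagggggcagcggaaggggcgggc
Hk2: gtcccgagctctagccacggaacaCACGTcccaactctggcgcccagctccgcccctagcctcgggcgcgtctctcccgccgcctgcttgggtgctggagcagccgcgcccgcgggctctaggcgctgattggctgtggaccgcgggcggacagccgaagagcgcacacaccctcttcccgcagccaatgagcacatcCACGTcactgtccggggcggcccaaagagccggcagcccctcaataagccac
Pgk1: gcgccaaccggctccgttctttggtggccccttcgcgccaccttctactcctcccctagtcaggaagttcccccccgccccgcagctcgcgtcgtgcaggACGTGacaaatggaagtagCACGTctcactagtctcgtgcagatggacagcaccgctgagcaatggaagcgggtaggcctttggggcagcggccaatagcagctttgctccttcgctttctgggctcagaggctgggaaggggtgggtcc
Ldha: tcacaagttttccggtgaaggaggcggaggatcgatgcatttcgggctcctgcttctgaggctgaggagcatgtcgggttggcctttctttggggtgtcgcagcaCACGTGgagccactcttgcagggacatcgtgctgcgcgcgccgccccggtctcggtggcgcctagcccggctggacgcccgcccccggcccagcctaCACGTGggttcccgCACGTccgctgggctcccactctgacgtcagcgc
In RefSeq coordinates of build GRCm38.p6, the runs lie at chr7:138909520-138909756 (minus strand), chr12:54203875-54204124 (minus strand), chr19:53329163-53329412 (plus strand), chr6:82774455-82774704 (minus strand), chrX:106186850-106187099 (plus strand) and chr7:46845554-46845803 (plus strand). Mxi1 has 3 such windows and Ldha has 2, and the one outside annotated exons with most ACGTG matches is shown. Bnip3 holds ACGTG 2 times and GCGTG 3 times, between 117 and 35 bases before the start. Ldha holds ACGTG 5 times, from 145 to 34 bases before the start, with 2 CACGTG sites among them. Pgk1 holds ACGTG 150 and 131 bases before the start, Hk2 226 and 52 bases before it, Mxi1 66 bases and Egln3 229 bases before it.

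RefSeq windows of the 250 bases before the start were at hand for 32 of the 35 members, in 47 windows, and not for Slc2a3, Ndrg1 and Bnip3l. ACGTG was found in 48.9% of the member windows and in 16.6% of all 32851 windows. GCGTG was found in 53.2% of the member windows and in 28.2% of all windows, and CACGTG in 8.51% and 6.02%. The median GC content was 62.8% in the member windows and 52.4% in all windows. Among the 6875 windows whose GC content lay within 5 percentage points of the member median, ACGTG was found in 23.1%, GCGTG in 47.1% and CACGTG in 9.18%. Beside these, the member share was higher for ACGTG, near for GCGTG and lower for CACGTG. The word ACGTG stood in 6 of the 9 members with a window that were higher in the wild-type Tfh than in the Th1 culture, and in 14 of the 23 with a window that were not called there. A match describes the letters of the window and is no evidence of binding.

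Values are length-normalised transcript abundances (TPM) divided by 1 factor per library (scaled TPM), because 14 gene models that each exceeded 1% of a library took 51.7% to 67.9% of all TPM in the Th1 libraries and 13.2% to 33.4% in the others. The factors were 0.472 to 0.668 for Th1 and 1.06 to 1.44 elsewhere, and 19.5% to 41.4% of symbols were at 0 in Th1 libraries against 8.20% to 23.9% elsewhere. Files of TPM hold no read counts, so depth and counting error are unknown. The T cell genes Cd3e (79.1 to 342 scaled TPM) and Cd4 (98.8 to 346) were present in all 12 libraries. Cxcr5, used in the tumour gate, was 7.74 to 12.8 in tumour Tfh and 1.60 to 6.68 in the cultures. Il21 was 57.7 to 89.1 in the wild-type Tfh culture and 3.71 to 8.05 in tumour Tfh. The 5 listed follicular helper genes, Cxcr5, Pdcd1, Bcl6, Il21 and Icos, summed to 166 to 322 scaled TPM in tumour Tfh and 142 to 185 in the wild-type Tfh culture. They summed to 80.8 to 109 in the OT-II culture and 38.9 to 84.7 in Th1, which overlapped. As deposited these last 2 ranges were 115 to 120 and 21.2 to 45.8. Ifng was 104 to 420 in Th1 and 12.4 to 97.4 elsewhere on the scaled values. The 5 listed Th1 genes, Tbx21, Ifng, Il12rb2, Cxcr3 and Hopx, summed to 141, 488 and 303 scaled TPM in Th1. In the wild-type Tfh culture they summed to 125 to 155, which overlapped Th1 replicate 1. As deposited the sums were 76.8 to 231 in Th1 and 144 to 201 in the wild-type Tfh culture. In what follows, a gene is called higher or lower when its p from a limma fit, adjusted by Benjamini-Hochberg for 21894 genes, is under 0.05, fold changes are on the log2(scaled TPM + 1) scale with their standard error, and 3 values in a row are replicates 1, 2 and 3.

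Replicate 2 of the tumour group stood apart. The 12 macrophage and monocyte markers summed to 80.6, 549 and 161 scaled TPM in the 3 tumour libraries and to 10.6 to 32.2 in the cultures. The 6 neutrophil markers summed to 6.16, 334 and 56.7 in tumour Tfh and to 3.66 to 13.2 in the cultures. Against the wild-type Tfh culture 6 of the 12 macrophage markers were higher (Adgre1, Csf1r, Cd68, Cd14, Fcgr1 and Lyz2) and 0 were lower, while none of the 5 neutrophil markers tested passed. The neutrophil gene S100a8 was listed at 0 in tumour replicate 1. The 7 markers of tumour epithelium summed to 5.42 to 12.1 in tumour Tfh and to 2.53 to 10.7 in the cultures. Counts of members in tumour comparisons, and most tumour fold changes of members, are therefore also given without replicate 2. For genes outside the members, tumour values are given with all 3 libraries only.

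**Figure D1:**
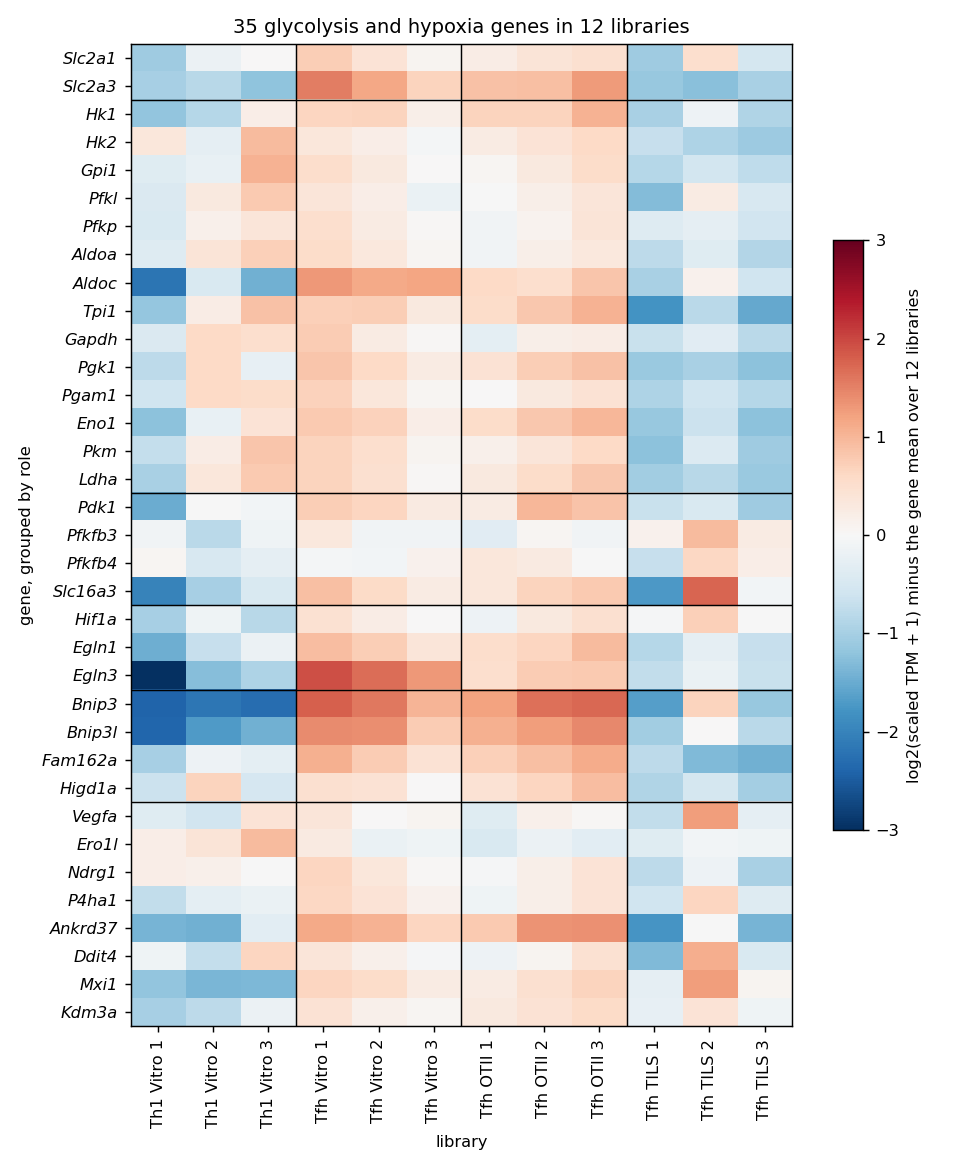
Each cell is the log2(scaled TPM + 1) of 1 gene (rows, grouped by role) in 1 library (columns), minus the mean of that gene over the 12 libraries, with red above and blue below that mean. Glycolytic enzymes are bluest in the 3 tumour columns, the mitophagy genes Bnip3 and Bnip3l are bluest in the 3 Th1 columns, and tumour replicate 2 is redder than its neighbours in the lower rows.

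All 35 members passed the filter on low values. On the scaled values the lowest group mean was that of tumour Tfh for 18 members, of Th1 for 16 and of the OT-II culture for 1.  The lowest mean of 13 of the 14 glycolytic enzymes was in tumour Tfh, and that of Aldoc was in Th1. For HIF and its sensors all 3 lowest means were in Th1, as were 6 of the 8 among other HIF targets. On TPM as deposited, however, the lowest mean was in Th1 for 32 members, 11 of the 14 enzymes among them. It was in tumour Tfh for 3 enzymes, Hk2, Tpi1 and Ldha. Against Th1, the median log2 fold change of all genes on that scale was 0.78 in the wild-type Tfh culture. It was 0.87 in tumour Tfh and 0.79 in the OT-II culture. How often each group held the lowest mean over all genes was not counted on either scale, so these counts have no background. The 14 enzymes summed to 1970, 2668 and 1931 scaled TPM in tumour Tfh, 6231, 5313 and 4125 in the wild-type Tfh culture, 4364, 5318 and 6054 in the OT-II culture and 2378, 4754 and 5928 in Th1. The tumour libraries lay below all 6 Tfh culture libraries, and Th1 replicate 1 lay far below the other Th1 libraries. As deposited, the OT-II sums were 6298, 6245 and 6392 (SD 74.3, against 847 on the scaled values). The OT-II factors were 1.44, 1.17 and 1.06, but 1.32, 1.27 and 1.28 when taken over genes of at least 10 TPM. In tumour Tfh the SD went the other way, 811 as deposited and 415 scaled. Standard errors and p-values of the scaled fit therefore depend on the factors too.

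The first comparison asked how the programme differs between Tfh and Th1 differentiation of wild-type cells. Mitophagy receptors, the oxygen sensors and Slc2a3 were higher in the Tfh culture, whereas most glycolytic enzymes were not called. Of 35 members 11 were called higher and 0 lower, against a background of 9.15% of all genes called higher and 5.61% called lower. At an unadjusted p under 0.05, 18 were higher and 1 was lower, but the share of all genes at that threshold was not counted. The 11 were Bnip3, Egln3, Bnip3l, Aldoc, Slc2a3, Ankrd37, Mxi1, Egln1, Fam162a, Hk1 and Kdm3a. By role, 3 of 4 mitochondrial targets, 2 of 3 HIF and sensor genes, 3 of 8 other HIF targets, 1 of 2 transporters, 2 of 14 enzymes and 0 of 4 regulators were higher. The median fold change was 2.13 for the mitochondrial targets and 0.28 for the enzymes, beside 0.71 for all members and 0.09 for all genes tested. In 15 members all 3 Tfh libraries lay above all 3 Th1 libraries, but the share of all genes separated in this way was not counted.

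Dendritic cell markers also summed higher in the Th1 libraries on the scaled values. The 8 genes summed to 260 to 311 scaled TPM in Th1 and 99.6 to 132 in the wild-type Tfh culture, with 1 of 8 called. This was Ccr7, which naive T cells express too and which alone gave 243 to 290 and 81.8 to 121. As deposited the sums were 123 to 208 against 129 to 145, and none of the 8 was called higher in Th1. The 6 B cell markers summed to 24.0 to 32.5 scaled TPM in Th1 and 9.41 to 11.1 in the wild-type Tfh culture. As deposited these ranges were 13.1 to 18.3 and 10.3 to 13.6, and they overlapped. The part of such cells in the levels of the members was not tested.

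The scale matters in every comparison with Th1. On TPM as deposited the median of all genes in this comparison was 0.78, a shift of 0.69, and 32 of 35 members were called higher and 0 lower, against a background of 41.1% higher and 0.511% lower. The 11 genes named above were called on both scales, and on the deposited scale the mitophagy receptor Bnip3 differed by 4.72 and Ldha by 1.42. Whether enzymes such as Ldha were higher in the Tfh culture therefore turns on the scale. Over the 16 alternative settings, 9 of the 11 calls were kept in all, and those of Hk1 and Kdm3a were lost in 9 settings each. Among these, Hk1 was not called when Tfh_Vitro replicate 1, 2 or 3 or Th1_Vitro replicate 1 or 2 was left out (adjusted p 0.0705 to 0.151), and Kdm3a under the same omissions (adjusted p 0.0790 to 0.121), all from limma.

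The second comparison set tumour Tfh against the wild-type Tfh culture. Both mitophagy receptors, Fam162a, both oxygen sensors, Slc2a3, Ankrd37 and 4 of the 14 glycolytic enzymes were lower in tumour Tfh. The other 10 enzymes, Hif1a and 7 of the 8 other HIF targets, Vegfa among these 7, were not called. Of 35 members 11 were called lower and 0 higher, with 1.17% of all genes called lower and 1.17% called higher. At an unadjusted p under 0.05, 23 were lower and 0 higher, again without a count of all genes at that threshold. By role, 4 of 14 enzymes (Tpi1, Aldoc, Pgk1 and Eno1), 3 of 4 mitochondrial targets, 2 of 3 HIF and sensor genes, 1 of 2 transporters, 1 of 8 other HIF targets and 0 of 4 regulators were lower. The median fold change was -1.07 for all members and 0.00 for all genes tested. In 23 members all tumour libraries lay below all culture libraries, including 13 of 14 enzymes and 4 of 4 mitochondrial targets. How many of all genes were separated in this way was not counted, so these numbers have no background beside them. The count depended on single libraries: it was 5, 10 and 2 without tumour replicates 1, 2 and 3, and 2, 2 and 6 without culture replicates 1, 2 and 3. Calls over all genes moved too, from 256 lower to 254, 160 and 86 without tumour replicates 1, 2 and 3. Without culture replicates 1, 2 and 3 they were 37, 34 and 136. On TPM as deposited 7 members were lower, with 0.944% of all genes called lower. Only Slc2a3 and Fam162a were called in all 16 alternative settings.

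Against the OT-II Tfh culture, which shares the tumour libraries with the preceding comparison, 17 members were called lower in tumour Tfh and 0 higher, with 8.58% of all genes called lower and 7.49% higher. These held 8 of 14 enzymes, 4 of 4 mitochondrial targets, 2 of 8 other HIF targets, and Slc2a3, Pdk1 and Egln1. The count was 18 without tumour replicate 2 and 10 without OT-II replicate 3. Over all genes 1320 and 913 were then called lower, beside 1879 with all libraries. The calls of Slc2a3, Hk2, Tpi1, Pgk1, Eno1, Bnip3, Bnip3l, Fam162a, Higd1a and Ankrd37 were kept in all 16 alternative settings.

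The third comparison, of the OT-II with the wild-type Tfh culture, gave 0 calls among the members by limma, with 2.07% of all genes called, 0.735% higher and 1.33% lower. At an unadjusted p under 0.05 there were 0 higher and 1 lower, again without a count of all genes at that threshold. Fold changes ran from -0.95 to 0.36 with standard errors of 0.23 to 0.65, and their median was 0.02, as for all genes tested. In 3 members the 2 groups did not overlap, namely Hk1, Aldoc and Egln3, singled out here after their values were seen. The share of all genes without overlap was not counted. A p that misses the threshold does not show that the cultures were alike.

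**Figure D2:**
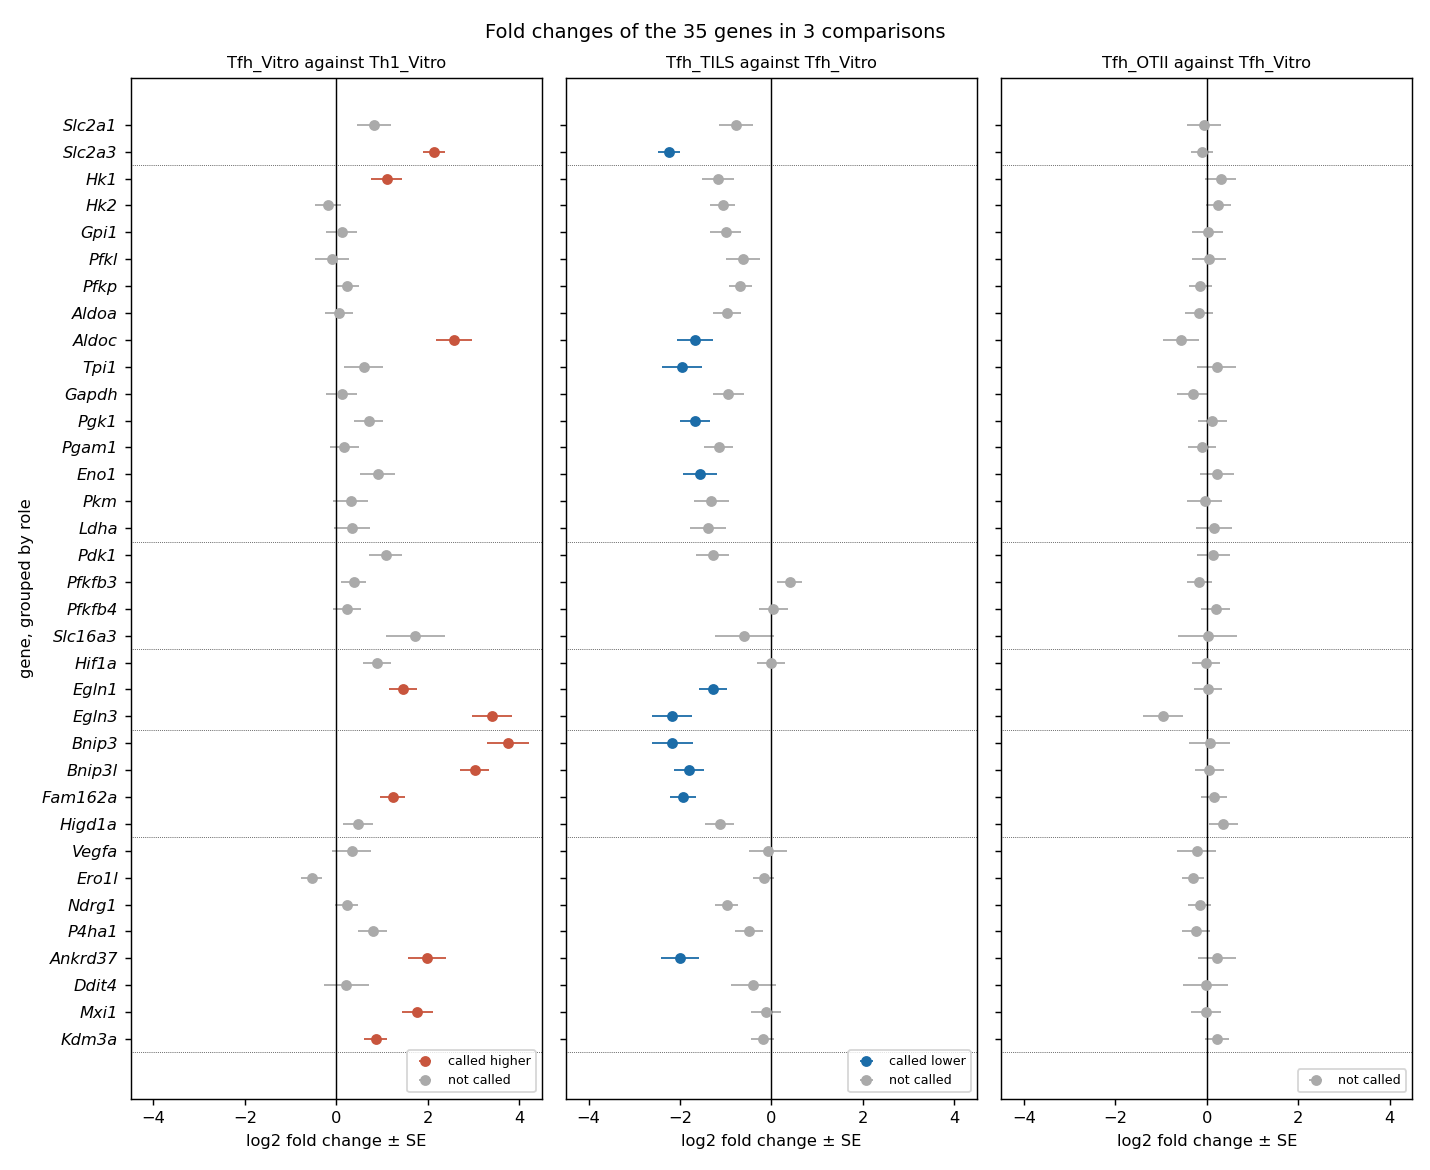
Points are limma log2 fold changes with standard errors (horizontal axis) for the 35 genes (vertical axis, grouped by role) in 3 comparisons, coloured by call. In the left panel 11 points are called higher and Bnip3 is farthest out at 3.76, in the middle panel 11 are called lower, and in the right panel none is called and all lie between -0.95 and 0.36.

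Glucose enters T cells through GLUT1 and GLUT3, the products of Slc2a1 (chr4:119108711-119137983, GENCODE on GRCm38) and Slc2a3 (chr6:122727809-122801640). Slc2a3 was at 12.5, 11.3 and 14.1 scaled TPM in tumour Tfh, 85.2, 64.9 and 45.8 in the wild-type Tfh culture, 53.0, 54.2 and 70.4 in the OT-II culture and 13.7, 15.7 and 11.7 in Th1. All 6 Tfh culture libraries lay above all 6 tumour and Th1 libraries, and the latter groups overlapped. Its fold change was 2.14 ± 0.24 for the Tfh against the Th1 culture (limma adjusted p = 0.000177) and -2.24 ± 0.24 for tumour Tfh against the Tfh culture (adjusted p = 0.00123), and -2.17 without tumour replicate 2. Slc2a1 was at 18.2, 56.1 and 27 in tumour Tfh, 66.5, 52.5 and 41.6 in the wild-type Tfh culture, 45.9, 51.3 and 54.9 in the OT-II culture and 18.3, 34.4 and 39.4 in Th1. It did not pass in either comparison, at 0.82 ± 0.37 against Th1 (adjusted p = 0.156), where the groups did not overlap, and -0.77 ± 0.37 for tumour against culture (adjusted p = 0.395), where tumour replicate 2 reached the culture range. Without that library the latter was -1.21 (adjusted p = 0.121).

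Hexokinases trap glucose in the cell by phosphorylation. Hk1, the housekeeping form, was at 26.9, 48.5 and 28.4 scaled TPM in tumour Tfh, 85.2, 85.7 and 61.0 in the wild-type Tfh culture, 85.8, 87.0 and 113 in the OT-II culture and 23.3, 29.2 and 62.5 in Th1. Hk2 (chr6:82725025-82774454), the inducible form and a HIF1α target, was at 23.0, 19.4 and 17.1 in tumour Tfh, 48.1, 43.7 and 36.1 in the wild-type Tfh culture, 44.7, 50.7 and 57.4 in the OT-II culture and 48.3, 31.2 and 73.4 in Th1. The tumour libraries were the lowest for Hk2, and Th1 overlapped both Tfh cultures. Hk1 rose in the wild-type Tfh against the Th1 culture by 1.11 ± 0.34 (limma adjusted p = 0.0458), although Th1 replicate 3 lay within the Tfh range. Hk2 differed by -0.18 ± 0.28 there (adjusted p = 0.703), and the sign turned to 0.87 on the deposited scale. Hk2 was lower in tumour Tfh than in the OT-II culture by 1.32 on the log2 scale (fold change -1.32 ± 0.28, adjusted p = 0.00667), and it differed by -1.07 ± 0.28 from the wild-type culture (adjusted p = 0.0688). Without tumour replicate 2 these were -1.31 (adjusted p = 0.0220) and -1.06 (adjusted p = 0.180).

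Triose phosphates are handled by aldolases, Tpi1 and Gapdh. Tpi1 (chr6:124810586-124814296), the triose phosphate isomerase, was at 53.0, 106 and 63.8 scaled TPM in tumour Tfh, 305, 313 and 229 in the wild-type Tfh culture, 271, 328 and 386 in the OT-II culture and 83.1, 218 and 346 in Th1. It fell in tumour Tfh by 1.96 on the log2 scale against the wild-type Tfh culture (fold change -1.96 ± 0.43, limma adjusted p = 0.0333) and by 2.18 against the OT-II culture (-2.18 ± 0.43, adjusted p = 0.00484). Without tumour replicate 2 these were -2.25 (adjusted p = 0.0380) and -2.46 (adjusted p = 0.00622). The 3 tumour libraries lay below all 6 Tfh culture libraries. Aldoc, a minor aldolase next to Aldoa in these cells, was at 1.36, 4.07 and 2.02 in tumour Tfh, 10.4, 9.05 and 9.42 in the wild-type Tfh culture, 6.02, 5.47 and 7.19 in the OT-II culture and 0, 2.34 and 0.695 in Th1. Its fold change was 2.57 ± 0.39 for the Tfh against the Th1 culture (adjusted p = 0.0012) and -1.68 ± 0.39 for tumour against culture (adjusted p = 0.0417), where it was -1.99 without tumour replicate 2 (adjusted p = 0.0365). Aldoa, the main aldolase, was at 352 to 498 in the wild-type Tfh culture and 259 to 562 in Th1, and differed by 0.06 ± 0.31 (adjusted p = 0.919). Gapdh, often taken as a reference gene, was at 420 to 578 in tumour Tfh, 744 to 1233 and 596 to 861 in the wild-type and OT-II Tfh cultures and 539 to 1114 in Th1.

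The payoff steps run from Pgk1 and Pgam1 through Eno1 and Pkm to Ldha. Pgk1, which makes the first ATP of the path, was at 139, 154 and 128 scaled TPM in tumour Tfh, 542, 459 and 359 in the wild-type Tfh culture, 411, 508 and 556 in the OT-II culture and 174, 454 and 256 in Th1. Eno1, the enolase, was at 223, 318 and 212 in tumour Tfh, 857, 799 and 573 in the wild-type Tfh culture, 728, 870 and 989 in the OT-II culture and 212, 428 and 655 in Th1. For both genes the tumour libraries lay below all Tfh culture libraries, and Th1 spread across much of the range between them. Against the wild-type Tfh culture Pgk1 fell in tumour Tfh by 1.67 on the log2 scale (-1.67 ± 0.32, limma adjusted p = 0.0176) and Eno1 by 1.56 (-1.56 ± 0.37, adjusted p = 0.0472). Without tumour replicate 2 Pgk1 stood at -1.74 (adjusted p = 0.0445) and Eno1 at -1.75 (adjusted p = 0.0725).

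Ldha (chr7:46841475-46855627), the lactate dehydrogenase subunit that favours lactate formation, was at 287, 330 and 272 scaled TPM in tumour Tfh, 938, 819 and 600 in the wild-type Tfh culture, 726, 863 and 1034 in the OT-II culture and 301, 742 and 1018 in Th1. The tumour libraries did not overlap the Tfh cultures, and Th1 ran from the tumour level to the top of the culture range. Its fold change in tumour Tfh was -1.55 ± 0.39 against the OT-II culture (limma adjusted p = 0.0178) and -1.38 ± 0.39 against the wild-type culture (adjusted p = 0.0943), and -1.63 (adjusted p = 0.0394) and -1.46 (adjusted p = 0.197) without tumour replicate 2. The wild-type Tfh and Th1 cultures differed by 0.34 ± 0.39 (adjusted p = 0.599). Pkm, the pyruvate kinase, followed a like order, at 258 to 457 in tumour Tfh, 646 to 964 in the wild-type Tfh culture and 368 to 1077 in Th1.

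Several of these genes have near-identical copies, over which an aligner of short reads may split their reads. Of the 31-base words of its transcripts, Pgk1 shared 54.7% with other genes, Pgam1 37.1%, Pkm 34.7%, Eno1 28.5%, Gapdh 27.2%, Bnip3l 23.7%, Bnip3 20.3% and Ldha 19.6%, so their levels are uncertain. The pseudogene Pgam1-ps2 was given 37.4 to 64.2 scaled TPM in the wild-type and 87.4 to 135 in the OT-II Tfh culture, 0.0841 to 10.5 in tumour Tfh and 0, 0 and 60.2 in Th1. With 20 named copies added to their parent genes, 12 members in place of 11 were lower in tumour Tfh than in the wild-type Tfh culture, and 11 were still the count for the Tfh against the Th1 culture. Over all genes these counts were 257 in place of 256 and still 2004. Copies were picked by name, and pseudogenes with other names were not added, such as Gm7336, which shares 26.5% of the words of Gapdh. Bnip3 and Pkm share 17.7% and 17.9% of their words with Gm16439 and Gm6560 and had no copy added. These counts therefore cannot show how split reads bear on such genes.

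Regulators of glycolysis gave few calls. Pdk1, the kinase that holds pyruvate back from the mitochondria, was at 14.5 to 22.7 scaled TPM in tumour Tfh, 38.2 to 53.2 and 37.4 to 64.1 in the wild-type and OT-II Tfh cultures and 10.6 to 31.1 in Th1. It was lower in tumour Tfh than in the OT-II culture (-1.43 ± 0.36, limma adjusted p = 0.0173; -1.57, adjusted p = 0.0292, without tumour replicate 2), and differed by -1.28 ± 0.36 from the wild-type culture (adjusted p = 0.0915). Slc16a3, which exports lactate, was at 6.87, 86.2 and 23.5 in tumour Tfh, 47.4, 38.1 and 29.9 in the wild-type Tfh culture and 5.47, 12.2 and 18.1 in Th1. Tumour replicate 2 stood above every culture library and replicate 1 below the Tfh cultures, so the tumour group had no common level for this gene. Pfkfb3 and Pfkfb4, whose products make the activator of phosphofructokinase, were not called in any of the 6 comparisons.

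HIF1α itself is set mostly by protein stability. Hif1a (chr12:73901375-73947530) RNA was at 184, 314 and 188 scaled TPM in tumour Tfh, 261, 223 and 191 in the wild-type Tfh culture, 172, 233 and 266 in the OT-II culture and 94.3, 174 and 106 in Th1. The wild-type Tfh libraries lay above the Th1 libraries, at a fold change of 0.89 ± 0.30 that missed the threshold (limma adjusted p = 0.0676). Tumour and wild-type culture differed by -0.01 ± 0.30 (adjusted p = 1), and by -0.26 without tumour replicate 2.

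The prolyl hydroxylases EGLN1 and EGLN3 mark HIF1α for degradation, and both genes are HIF targets. Egln3 (chr12:54178981-54203860) was at 7.70, 11.6 and 8.11 scaled TPM in tumour Tfh, 54.4, 45.1 and 34.4 in the wild-type Tfh culture, 19.5, 23.3 and 24.0 in the OT-II culture and 0.673, 4.92 and 6.56 in Th1. The 4 groups did not overlap, in the order wild-type Tfh culture, OT-II culture, tumour and Th1. Egln3 rose in the Tfh against the Th1 culture by 3.41 ± 0.44 (limma adjusted p = 0.000401; 4.18 on the deposited scale) and fell in tumour against culture (-2.17 ± 0.44, adjusted p = 0.0218; -2.33, adjusted p = 0.0429, without tumour replicate 2). Between the OT-II and wild-type cultures it differed by -0.95 ± 0.44 (adjusted p = 0.391), and it was called lower only in the fit to those 2 groups alone (adjusted p = 0.0282, where the other alternatives gave 0.262 to 0.700).

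Egln1 was at 12.3, 18.8 and 13.9 scaled TPM in tumour Tfh, 44.6, 39.0 and 29.9 in the wild-type Tfh culture, 33.3, 36.7 and 45 in the OT-II culture and 7.67, 13.8 and 20.2 in Th1. All Tfh culture libraries lay above all tumour and Th1 libraries. The fold change was 1.46 ± 0.31 for the Tfh against the Th1 culture (limma adjusted p = 0.0075) and -1.28 ± 0.31 for tumour against culture (adjusted p = 0.0468). The latter call was lost without tumour replicate 2 (-1.45, adjusted p = 0.0655).

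The mitophagy receptors BNIP3 and BNIP3L tag mitochondria for removal when oxygen is low. Bnip3 (chr7:138890836-138909519) was at 13.5, 71.6 and 19.9 scaled TPM in tumour Tfh, 157, 136 and 90.9 in the wild-type Tfh culture, 105, 142 and 150 in the OT-II culture and 7.56, 9.06 and 8.38 in Th1. Bnip3l (chr14:66985239-67008877) was at 58.4, 124 and 69.9 in tumour Tfh, 329, 323 and 208 in the wild-type Tfh culture, 257, 292 and 334 in the OT-II culture and 22.8, 36.9 and 44.5 in Th1. For both genes the groups fell into 3 separate levels, with the Tfh cultures at the top, tumour Tfh between and Th1 at the bottom. These were the largest fold changes beside Egln3 between the Tfh and Th1 cultures, at 3.76 ± 0.45 for Bnip3 (limma adjusted p = 0.000267; 4.72 on the deposited scale) and 3.03 ± 0.32 for Bnip3l (adjusted p = 0.000124; 4.08 on the deposited scale). In tumour Tfh against the wild-type culture Bnip3 fell by 2.17 on the log2 scale (-2.17 ± 0.45, adjusted p = 0.0262) and Bnip3l by 1.80 (-1.80 ± 0.32, adjusted p = 0.0131). Without tumour replicate 2 these were -2.86 (adjusted p = 0.000718) and -2.12 (adjusted p = 0.00703).

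FAM162A and HIGD1A are mitochondrial proteins made under HIF control. Fam162a (chr16:36043761-36071594) was at 74.3, 51.1 and 47.1 scaled TPM in tumour Tfh, 272, 218 and 174 in the wild-type Tfh culture, 211, 242 and 278 in the OT-II culture and 64.3, 115 and 105 in Th1. Tumour and Th1 libraries overlapped, and all lay below the Tfh cultures. Fam162a fell in tumour against the wild-type culture by 1.93 on the log2 scale (-1.93 ± 0.28, limma adjusted p = 0.00474; -1.86, adjusted p = 0.0151, without tumour replicate 2) and rose in the Tfh against the Th1 culture by 1.23 ± 0.28 (adjusted p = 0.0113). Higd1a was at 27.8 to 39.8 in tumour Tfh, 58.4 to 81.4 and 78.6 to 111 in the wild-type and OT-II Tfh cultures and 36.4 to 91.8 in Th1. It was called only in tumour Tfh against the OT-II culture (-1.49 ± 0.32, limma adjusted p = 0.00734), and stood at -1.64 without tumour replicate 2 (adjusted p = 0.0126).

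**Figure D3:**
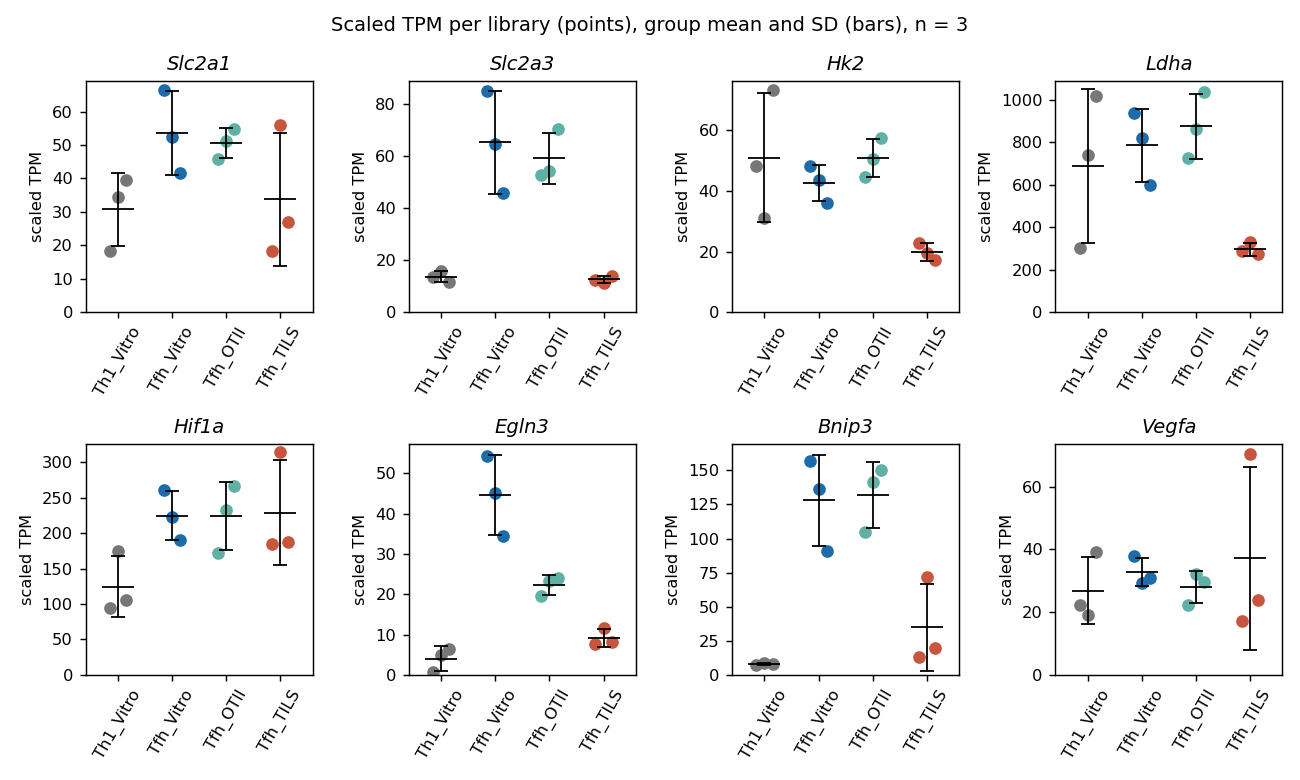
Points are scaled TPM (vertical axes from 0) of 8 genes in each library of the 4 groups, with the group mean and its standard deviation (n = 3). Slc2a3 is high in both Tfh cultures alone, Bnip3 and Egln3 are lowest in Th1, Ldha is low in all 3 tumour libraries, and 1 tumour library (replicate 2) lies apart for Slc2a1, Bnip3, Vegfa and Hif1a.

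Among other HIF targets, Ankrd37, Mxi1 and Kdm3a rose in the wild-type Tfh against the Th1 culture. Ankrd37 (chr8:45996902-46005707), an ankyrin repeat protein induced by HIF1α, was at 5.01, 19.2 and 6.83 scaled TPM in tumour Tfh, 44.1, 41.3 and 30.9 in the wild-type Tfh culture, 34.4, 50.9 and 51.7 in the OT-II culture and 6.80, 6.53 and 15.3 in Th1. Its fold change was 2.00 ± 0.42 for the Tfh against the Th1 culture (limma adjusted p = 0.00729) and -2.0 ± 0.42 for tumour against culture (adjusted p = 0.0255; -2.52, adjusted p = 0.00458, without tumour replicate 2). Mxi1, which antagonises MYC, was at 4.89, 16.1 and 6.61 in tumour Tfh, 10.1, 9.39 and 7.47 in the wild-type Tfh culture, 7.52, 8.90 and 10.4 in the OT-II culture and 2.12, 1.76 and 1.83 in Th1. Th1 was lowest for Mxi1 without overlap, and the tumour libraries lay on both sides of the culture range. The histone demethylase gene Kdm3a was at 39.4, 62.8 and 42.3 in tumour Tfh, 63.2, 52.0 and 48.3 in the wild-type Tfh culture, 57.4, 63.1 and 70.3 in the OT-II culture and 23.0, 26.5 and 41.3 in Th1.

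The remaining HIF targets did not pass in the wild-type Tfh against Th1 comparison. Vegfa (chr17:46016993-46032369), the vascular growth factor, was at 17.1, 70.6 and 23.8 scaled TPM in tumour Tfh, 37.9, 29.3 and 31 in the wild-type Tfh culture, 22.3, 32.3 and 29.7 in the OT-II culture and 22.2, 19.2 and 39.1 in Th1. Tumour replicate 2 was the highest of the 12 libraries and replicates 1 and 3 were within or below the range of the cultures. Tumour and wild-type culture differed by -0.08 ± 0.42 (limma adjusted p = 0.984), and by -0.67 without tumour replicate 2 (adjusted p = 0.476). Ero1l, an oxidase of protein folding in the endoplasmic reticulum, had its highest mean in Th1 (103 ± 29.1, SD, n = 3), against 69.4 ± 12.9 in the wild-type Tfh culture. Ddit4, an inhibitor of mTORC1, was at 13.1, 74.8 and 24.6 in tumour Tfh and 33.5 to 44.7 in the wild-type Tfh culture.

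Tumour replicate 2, the library with most myeloid marker RNA, was also the highest tumour library for 32 of the 35 members. It exceeded the mean of replicates 1 and 3 by over 1.5 times for 19 members and by over 2 times for 10, with a median ratio of 1.66 over all members and 1.36 over the 14 enzymes. The ratio was 5.68 for Slc16a3, 4.29 for Bnip3, 3.96 for Ddit4, 3.46 for Vegfa, 3.24 for Ankrd37 and 2.81 for Mxi1. Fam162a (0.841), Slc2a3 (0.854) and Hk2 (0.969) were the exceptions. The part of the myeloid RNA in the levels of the members was not tested. Replicate 2 was also the highest tumour library for the 11 listed T cell genes, Cd3e and Cd4 among them (1838, 2645 and 1681 scaled TPM). The same held for the 5 follicular helper genes (172, 322 and 166). It was not the highest for the 8 proliferation genes (345, 331 and 268) or the 23 genes of pyruvate oxidation and the citric acid cycle (1041, 818 and 850). Without replicate 2, 10 members were lower than in the wild-type Tfh culture, beside 11 with it, where 160 and 256 of all genes were lower.

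**Figure D4:**
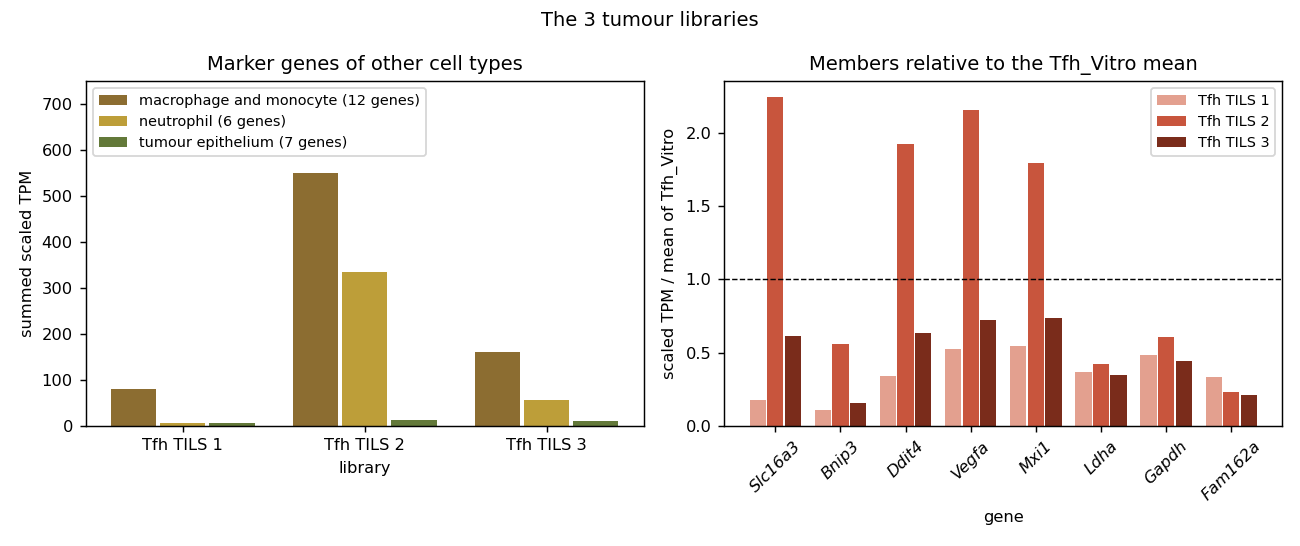
Left, summed scaled TPM (bars, from 0) of marker genes of 3 other cell types in each tumour library; right, scaled TPM of 8 members in each tumour library divided by the mean of the wild-type Tfh culture (dashed line at 1). Replicate 2 has the highest macrophage (549) and neutrophil (334) sums and rises above the culture mean for Slc16a3, Ddit4, Vegfa and Mxi1, while Ldha, Gapdh and Fam162a stay below it in all 3 libraries.

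Tumour Tfh and the Th1 culture, both low for many members, were then set against each other. On the scaled values 3 of 35 members (8.57%) were called higher in tumour Tfh and 3 (8.57%) lower, with 10.9% of all genes called higher and 7.69% lower, so both counts were near the shares over all genes. Bnip3 was higher by 1.59 ± 0.45 (limma adjusted p = 0.0285), Bnip3l by 1.23 ± 0.32 (adjusted p = 0.0202) and Mxi1 by 1.66 ± 0.33 (adjusted p = 0.00523), and all 3 were also called on the deposited scale. Hk2 (-1.24 ± 0.28, adjusted p = 0.00883), Tpi1 (-1.36 ± 0.43, adjusted p = 0.0434) and Pgam1 (-0.98 ± 0.31, adjusted p = 0.0453) were lower, and none of these was called on the deposited scale, where 18 members were higher and 0 lower (49.3% and 0.601% of all genes) and Pgam1 turned to 0.23. The split was 3 higher and 1 lower with trimmed-mean scaling and 7 higher and 1 lower with the dominant genes removed. Over all genes these splits were 2224 and 1222, and 3624 and 1055. Without tumour replicate 2, Bnip3 (0.90, adjusted p = 0.0602), Bnip3l (0.91, adjusted p = 0.0818) and Pgam1 (-1.07, adjusted p = 0.0731) were not called. The counts were then 1 higher and 3 lower, with 1543 and 940 over all genes. Without Th1 replicate 1 there were 1 higher and 12 lower, with 2124 and 2008 over all genes. No call in this comparison was kept in all alternatives.

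Against Th1, the OT-II Tfh culture had 13 members higher and 1 lower, with 12.7% of all genes called higher and 8.42% lower. The deposited scale gave 31 higher and 0 lower, with 42.7% and 1.16% of all genes. The 13 genes were Slc2a3, Hk1, Aldoc, Eno1, Pdk1, Egln1, Egln3, Bnip3, Bnip3l, Fam162a, Ankrd37, Mxi1 and Kdm3a, and all were called on both scales. Bnip3 rose by 3.82 ± 0.45 (limma adjusted p = 9.49e-05) and Bnip3l by 3.09 ± 0.32 (adjusted p = 3.43e-05). Ero1l fell by 0.84 (-0.84 ± 0.23, adjusted p = 0.023), and the difference turned to 0.27 on the deposited scale. This comparison shares the Th1 libraries with the wild-type one.

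Ratios between 2 members of the same library do not depend on the scaling factor, and TPM allows them because it is per transcript length. The ratios here were chosen after the values were seen and are given as a description. Hk1 over Hk2 was 0.484, 0.933 and 0.850 in Th1 and 1.17 to 2.49 in the 9 other libraries, so Th1 was the group with more Hk2 than Hk1. Slc2a3 over Slc2a1 was 1.06 to 1.28 in the 6 Tfh culture libraries, 0.202 to 0.687 in tumour Tfh and 0.297 to 0.747 in Th1. Egln3 over Egln1 was 1.15 to 1.22 in the wild-type Tfh culture, 0.533 to 0.636 in the OT-II culture, 0.584 to 0.626 in tumour Tfh and 0.0877 to 0.358 in Th1. By this ratio the OT-II culture lay with tumour Tfh and below the wild-type culture.

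The 4 mitochondrial targets together made up 12.9% to 14.2% of the summed TPM of the 14 enzymes in the wild-type and 14.4% to 14.9% in the OT-II Tfh culture. The share was 8.53% to 10.7% in tumour Tfh and 3.35% to 5.51% in Th1. The tumour and Th1 groups overlapped neither each other nor the cultures on this measure, although both had low Bnip3.

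**Figure D5:**
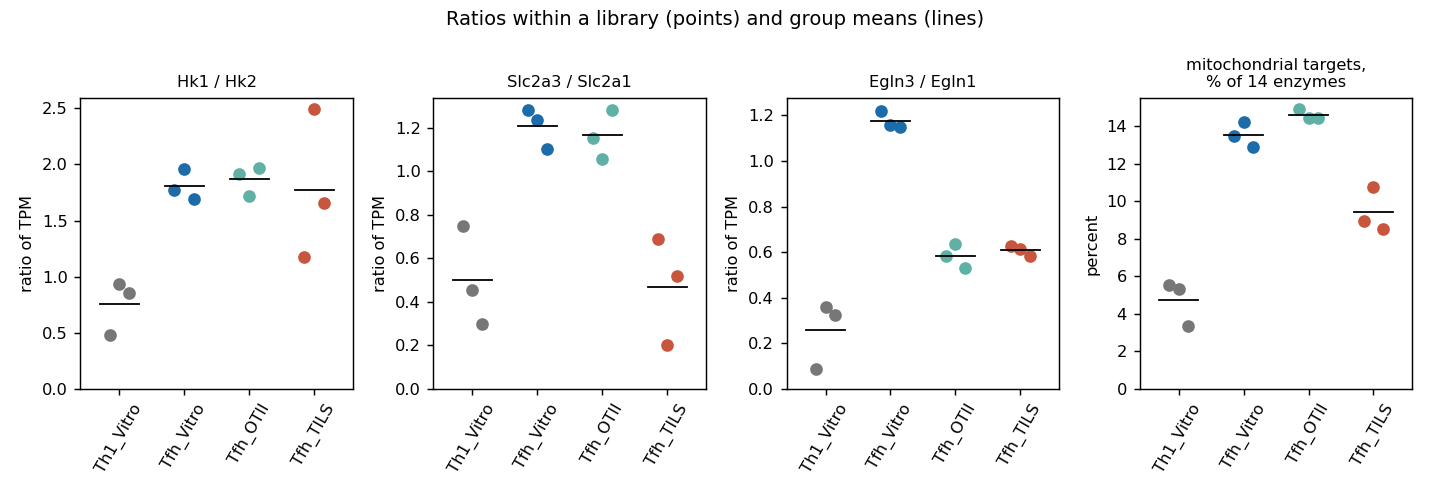
Points are ratios of TPM within each library (vertical axes from 0) for the 4 groups, with lines at group means; the last panel is the sum of Bnip3, Bnip3l, Fam162a and Higd1a as a percent of the 14 enzymes. Hk1 over Hk2 lies under 1 in the 3 Th1 libraries alone, Egln3 over Egln1 lies above 1 in the wild-type Tfh culture alone, and the mitochondrial share is 3.35% to 5.51% in Th1.

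Other genes of the same pathways were taken from lists. Of 24 tested genes of glycolysis outside the members, 1 was higher and 2 were lower in the wild-type Tfh against the Th1 culture (10 and 1 on the deposited scale). Pgm2, a phosphoglucomutase, was higher by 1.09 ± 0.31 (limma adjusted p = 0.033). The muscle enolase Eno3 was lower on both scales (-1.93 ± 0.24, adjusted p = 0.000299), at 4.48 ± 0.833 against 19.9 ± 2.76 scaled TPM (SD, n = 3). The lactate transporter Slc16a1 was lower on the scaled values (-1.14 ± 0.29, adjusted p = 0.021) and differed by -0.09 on the deposited scale. In tumour Tfh against the wild-type culture, 0 were higher and 2 were lower, namely Ldhb (-1.47 ± 0.28, adjusted p = 0.0152) and Pgm2 (-1.64 ± 0.31, adjusted p = 0.0167). In the OT-II against the wild-type culture Pdk4 alone was called (-1.72 ± 0.40, adjusted p = 0.0426).

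The pentose phosphate pathway branches from glycolysis to make NADPH and ribose. Of its 7 genes 4 were lower in the wild-type Tfh than in the Th1 culture on the scaled values and 0 were higher, among them G6pdx (-1.03 ± 0.24, limma adjusted p = 0.0142), with a median of -0.93. On the deposited scale none of the 7 was called and the median was 0.11. None was called in tumour Tfh or in the OT-II culture against the wild-type Tfh culture. Of 23 genes of pyruvate oxidation and the citric acid cycle, 1 was higher and 2 were lower in the Tfh against the Th1 culture (15 and 0 on the deposited scale), and 0 were called in tumour Tfh against the wild-type culture.

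Among 12 other regulators of HIF, 2 were higher in the wild-type Tfh than in the Th1 culture on both scales, the coactivator gene Crebbp (1.67 ± 0.37, limma adjusted p = 0.0103) and Cited2 (1.41 ± 0.31, adjusted p = 0.0103), whose product competes with HIF for coactivators. The deposited scale gave 9 of the 12 higher. None of the 12 was called in tumour Tfh against the wild-type culture. Of 25 tested hypoxia targets outside the members, 5 were higher and 2 lower in the wild-type Tfh against the Th1 culture, with a median of 0.44. The deposited scale gave 18 higher and 0 lower of 26 tested. Stc2 (1.91 ± 0.32, adjusted p = 0.00206), Ak4 (1.86 ± 0.43, adjusted p = 0.0126) and the collagen prolyl hydroxylase subunit P4ha2 (1.85 ± 0.41, adjusted p = 0.00952) led the higher ones and were called on both scales. In tumour Tfh against the wild-type culture, 1 was higher and 1 lower of these 25. The heme oxygenase Hmox1, abundant in macrophages, was at 33.5, 179 and 65.8 scaled TPM in tumour Tfh and 7.77 to 10.3 in the wild-type Tfh culture (2.84 ± 0.44, adjusted p = 0.0065), and followed the order of the macrophage markers over the tumour libraries. Ak4, a mitochondrial adenylate kinase, was lower (-1.87 ± 0.43, adjusted p = 0.0401).

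The RNA of proliferation genes was also summed. The 8 genes summed to 268 to 345 scaled TPM in tumour Tfh, 597 to 826 in the wild-type Tfh culture, 1073 to 1646 in the OT-II culture and 166 to 515 in Th1. Of the 8, 6 were higher in the wild-type Tfh than in the Th1 culture and 3 were lower in tumour Tfh than in the wild-type Tfh culture. The part of proliferation in the levels of the members was not tested.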

How the data were processed

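RNA of CD4+ T cells was sequenced as 12 stranded total RNA libraries, read in pairs of 75 bases. The authors deposited 1 table of TPM per library, made with kallisto on mm10 per the submitters' processing notes; its version and annotation are not given in the sources used here. TPM sums to 1000000 per library and keeps no read counts, so library depth and counting error are unknown. TPM was divided by median-of-ratios size factors over 17585 genes. limma (version 3.58.1, R 4.3.3, trend) was fitted to log2(scaled TPM + 1) of all 12 libraries, 1 mean per group, for 21894 genes with a group mean of at least 1, with Benjamini-Hochberg adjustment over all of them and a threshold of 0.05. The fit was also run on simulated data in which groups differed only in added changes and no scaling was applied. That run does not bear on the choice of scale. A pseudocount of 1 understates changes of low genes. The 35 members and all lists were chosen with earlier results of these data known. Every member is counted; values in every library are given for the 5 highest and 5 lowest called fold changes of the 3 main comparisons and for 8 set genes, and up to 3 called genes per direction are named from other lists. Alternatives were 4 other scalings, a smaller pseudocount (0.1), a filter at 5 or none, a fit to 2 groups, a replicate block, copies added and each library left out. Positions are from GENCODE release M21 and upstream sequences from RefSeq (GRCm38.p6).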

Additional observations from a re-analysis of the deposited data

How the results depend on the processing

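For 77 fold changes of single members (those called, and 8 set genes in the 3 main comparisons), the 16 alternatives gave 1232 values. Of these, 1047 kept their status, called or not called, so part of them never had a call. A call was lost in 169 and gained in 13. The sign changed with a call on either side in 3, all on TPM as deposited. These were Hk2 in Tfh_Vitro against Th1_Vitro (0.87), Pgam1 in Tfh_TILS against Th1_Vitro (0.23) and Ero1l in Tfh_OTII against Th1_Vitro (0.27). Over all 210 fold changes of the 35 members in 6 comparisons, TPM as deposited changed the sign of 32 (2 of them called on the scaled values; 19 in Tfh_TILS against Th1_Vitro), added 54 calls and removed 11. As deposited, 32 members were higher in Tfh_Vitro against Th1_Vitro (main 11), 31 higher and 0 lower in Tfh_OTII against Th1_Vitro (main 13 and 1), 18 higher and 0 lower in Tfh_TILS against Th1_Vitro (main 3 and 3) and 7 lower in Tfh_TILS against Tfh_Vitro (main 11). For Tfh_TILS against Tfh_Vitro, scaling on genes of at least 10 TPM gave 17, a pseudocount of 0.1 gave 7 and no filter gave 4. Over all genes these settings called 409 of 22166, 165 of 21894 and 152 of 34778 lower, beside 256 of 21894 in the main fit. For Tfh_TILS against Th1_Vitro, higher and lower counts were 7 and 7 with scaling on genes of at least 10 TPM, 7 and 1 with genes above 1% removed, 6 and 7 with a filter at 5, 0 and 0 with only the 2 groups, 3 and 1 with the trimmed mean, 3 and 5 with a pseudocount of 0.1, and 2 and 1 with no filter. In the same order, the counts over all genes were 2837 and 1746, 3624 and 1055, 1943 and 1878, and 815 and 392. The last 3 settings gave 2224 and 1222, 2535 and 1639, and 1958 and 1305. For Tfh_OTII against Th1_Vitro the trimmed mean and the 2-group fit gave 0 lower; for Tfh_OTII against Tfh_Vitro the 2-group fit gave 1 lower (main 0); for Tfh_TILS against Tfh_OTII removing genes above 1% gave 1 higher (main 0). Over all genes these fits called 1351 and 950 lower, 705 lower and 2478 higher. Apart from the scales and filters themselves, the cause was not tested. Leaving out each library gave 9 to 13 higher in Tfh_Vitro against Th1_Vitro, 2 to 10 lower in Tfh_TILS against Tfh_Vitro, 10 to 18 lower in Tfh_TILS against Tfh_OTII, 1 to 6 higher and 1 to 12 lower in Tfh_TILS against Th1_Vitro, and 11 to 15 higher and 0 to 1 lower in Tfh_OTII against Th1_Vitro; 0 were called in Tfh_OTII against Tfh_Vitro. Calls over all genes moved as well, in Tfh_TILS against Tfh_Vitro from 256 lower to between 34 and 254.

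Replicate numbers recur across groups, but samples with the same number did not deviate together (correlations -0.50 to 0.31, median -0.05, 18 pairs; -0.27 to 0.45, median 0.03, for 36 pairs of different numbers), so the numbers were not taken as pairs. With a replicate block the counts were 9 higher in Tfh_Vitro against Th1_Vitro, 9 lower in Tfh_TILS against Tfh_Vitro, 14 lower in Tfh_TILS against Tfh_OTII, 3 higher and 2 lower in Tfh_TILS against Th1_Vitro, 13 higher and 1 lower in Tfh_OTII against Th1_Vitro and 0 in Tfh_OTII against Tfh_Vitro. In the same order, the block called 1747 higher, 177 lower and 1529 lower over all genes. For the last 3 comparisons it called 2066 higher and 1415 lower, 2439 higher and 1599 lower, and 119 higher and 268 lower. Within-library ratios were an alternative added after seeing the data.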
